A study of Homo sapiens with 6 samples.

Results

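Amino acid transporter genes were followed in HMC3, a human microglial cell line that has been immortalised. The series holds 3 libraries labelled Control and 3 of cells given the cytokine interleukin-33 (IL-33) for 24 h. The members were all rows of the deposited count table whose symbol falls in the solute carrier (SLC) families 1, 3, 6, 7, 36, 38 or 43. The rule reads names alone and found 59 of the 27469 genes. All 6 libraries come from the same line, and no genotype, other agent or dose is given in the labels. RNA was read with QuantSeq 3' FWD, which reads a short stretch at the polyadenylated end of each transcript. Counts therefore depend little on gene length, and levels in CPM (counts scaled to a common library size) can be set side by side roughly between genes. Reads shared with a near-identical copy or an overlapping gene limit this for some of them. So may the annotation used for counting, which the sources used here do not give. RNA levels say nothing of the amount of transporter at the membrane.

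Cells take up most amino acids against a gradient or by exchange, and the families divide this work. Sodium-coupled carriers such as SLC38A2 load the cell with small neutral amino acids and glutamine. Light chains of the SLC7 family, joined by a disulfide bond to the heavy chain SLC3A2 (CD98), exchange amino acids across the membrane, among them leucine, cystine and arginine. Many of these genes respond to amino acid shortage through the transcription factor ATF4, and the cystine carrier SLC7A11 also responds to NRF2, the regulator of the antioxidant response. In brain, glutamate uptake by SLC1A2 and SLC1A3 is a task of astrocytes, and several SLC6 genes clear neurotransmitters at synapses.

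The libraries held between 5739947 and 10217529 counts, and 3 counts, the limit that a count of 0 allows, came to between 0.293 and 0.543 CPM. Control 3, the shallowest library, differed from the rest: it was the highest or the lowest of the 6 in 53.3% of the genes tested, against 26.1% to 31.95% for each of the other libraries. Microglial markers were mostly absent, with ITGAM, P2RY12, TMEM119, CX3CR1, SPI1, TYROBP, C1QA and C1QB at 0 counts in all 6 libraries (8 of 15 markers), while the mesenchymal markers were uneven. FN1 was at 3672 CPM, TAGLN at 1484 CPM and COL1A1 at 721 CPM, COL1A2 was at 15.6 CPM, and COL3A1 and ACTA2 had 0 counts (2 of 8 markers). The 15 microglial markers summed to between 25.3 and 46.2 CPM in Control, against 32.6 to 37.3 CPM under IL-33. The labels do not call the libraries separate cultures, so every p-value here rests on a spread between libraries that may be technical.

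A minority of the transporter genes held most of the transporter counts in HMC3. Of the 59 genes, 14 had 0 counts in all libraries, 20 had some counts but too few to test, and 25 (42.4%) were tested, against 44.1% of all genes in the table. The 15 genes at a mean of 10 CPM or more held 95.6% of all transporter counts, and the 5 most abundant held 66.1%. Of all 27469 genes, 8329 reached 10 CPM in counts scaled by library size alone. All 59 genes together summed to 1274, 1334 and 1384 CPM in Control 1, 2 and 3 and to 1243, 1261 and 1265 CPM in IL-33 1, 2 and 3. In CPM from scaled library sizes the IL-33 libraries were all below the Control libraries. As a plain share of each library's counts they were not: IL-33 3 (0.1294%) lay above Control 1 (0.1291%).

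**Figure D1:**
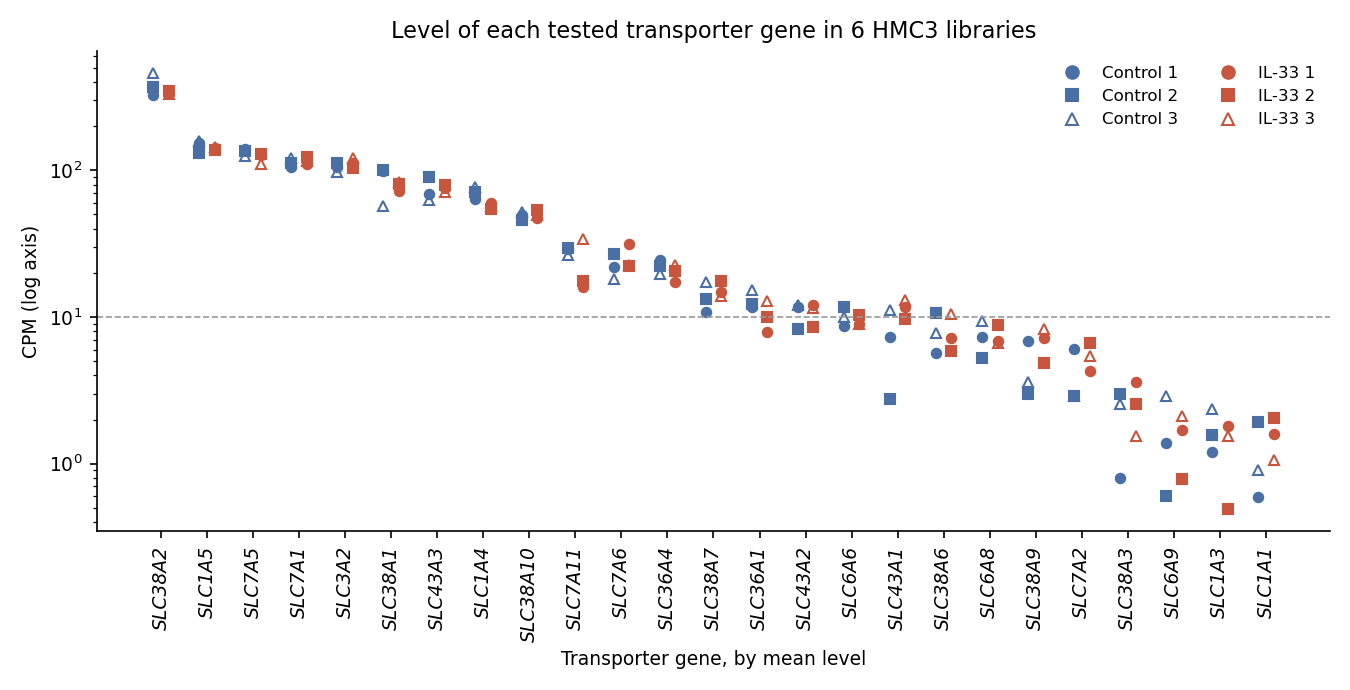
CPM (log axis) of the 25 tested transporter genes, ordered by mean level, in each Control library (blue) and each IL-33 library (red). The dashed line marks 10 CPM. SLC38A2 is the highest gene in all 6 libraries, and 10 genes have a mean below the line.

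No transporter gene passed the test between IL-33 and Control. With edgeR's quasi-likelihood test across 12125 genes, 0 of 25 tested transporters were called at a Benjamini-Hochberg adjusted p under 0.05, where the share over all genes was 0%. The adjusted p was 0.999 for each of the 25. Of these, 13 had a log2 fold change above 0 and 12 below it, with a median of 0.00, against -0.01 over all genes tested, of which 48.9% were above 0. At an unadjusted p under 0.05 there was 1 transporter, SLC1A4, against 2.43% of all genes (1.45% higher, 0.981% lower). In bulk RNA, fewer cells that express a gene and less RNA per cell cannot be told apart. The 3 IL-33 values lay all below the 3 Control values in 1 of the 25 genes, again SLC1A4, and all above in none, where over all genes tested 8.06% were separated (4.54% above, 3.51% below).

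The precision of the difference varied strongly between genes and did not follow level alone. SLC38A2, the most abundant, had an interval from -0.44 to 0.03. The 95% interval of the difference stayed inside -1 to 1 on the log2 scale for all 15 genes at 10 CPM or more and for 18 of the 25, against 73.4% of all genes tested. The narrowest belonged to the abundant carriers SLC1A5 (-0.28 to 0.17), SLC7A5 (-0.37 to 0.09) and SLC7A1 (-0.19 to 0.27). The widest, for SLC1A3 (-1.94 to 1.16), SLC6A9 (-1.63 to 1.54) and SLC1A1 (-1.09 to 2.02), left a change of more than 2-fold in either direction within bounds.

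**Figure D2:**
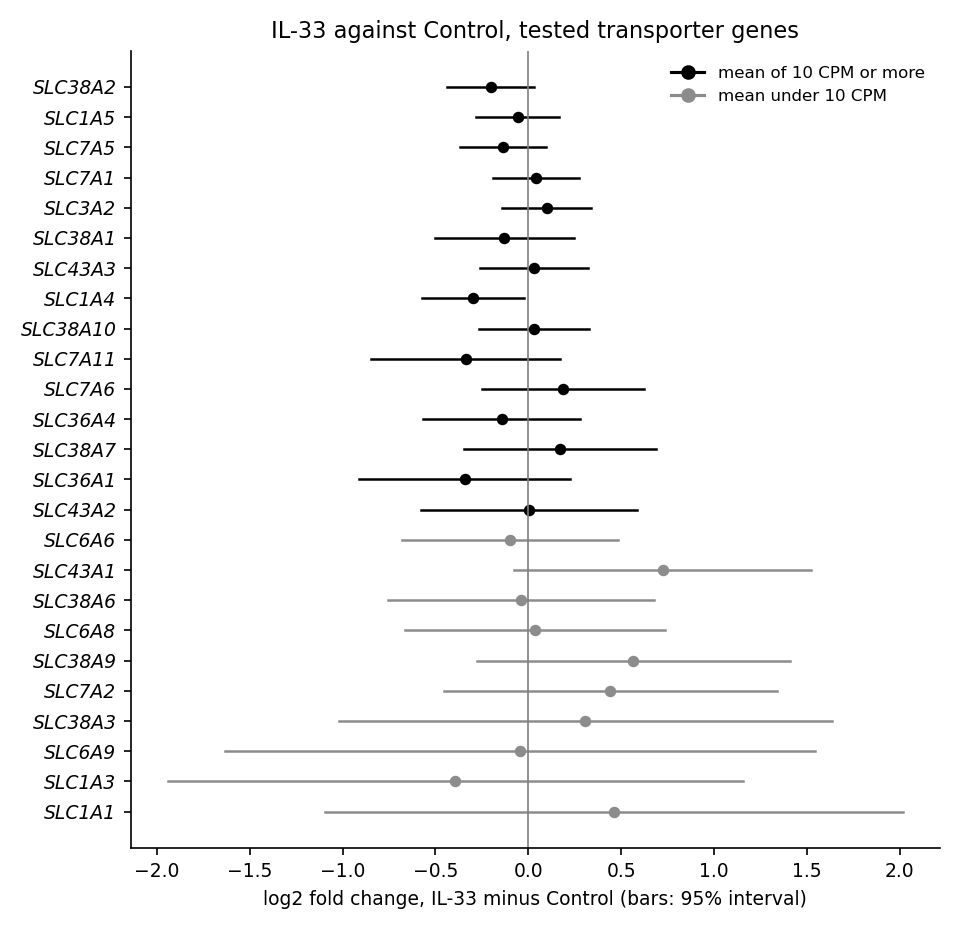
Log2 fold change of IL-33 against Control with its 95% interval for the 25 tested transporter genes, ordered by mean level from top to bottom. Black marks genes at a mean of 10 CPM or more and grey those below. Among the 25, SLC1A4 alone has an interval that leaves out 0 (-0.57 to -0.02), before any adjustment.

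Sodium-coupled neutral carriers of the SLC38 family took 40.4% of all transporter counts. SLC38A2 (chromosome 12, 46358189 to 46372867, GRCh38), which concentrates alanine, serine and glutamine and is known for its induction in amino acid shortage, was the most abundant transporter and lay above 96.8% of all genes tested. It measured 329, 372 and 464 CPM in Control 1, 2 and 3 and 335, 346 and 329 CPM in IL-33 1, 2 and 3. The IL-33 libraries lay close together and within the range of the Control libraries, which Control 3 widened upwards. The log2 fold change was -0.20 ± 0.11 (SE), and with a library left out it ran from -0.31 without Control 1 to -0.06 without Control 3.

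SLC38A1 (chromosome 12, 46183063 to 46270017), a glutamine carrier encoded next to SLC38A2 on the same strand, measured 99.7, 99.8 and 57.4 CPM in Control, against 72.7, 80.5 and 83.1 CPM under IL-33. Here Control 3 was the lowest library and Controls 1 and 2 were the highest. The log2 fold change was -0.13 ± 0.17, and with a library left out it ran from -0.34 without Control 3 (adjusted edgeR p of 0.430) to -0.0053 without Control 1. The ratio of SLC38A2 to SLC38A1 was 8.09 in Control 3, and between 3.30 and 4.61 in the other 5 libraries. In these neighbouring genes Control 3 therefore departed from the other Control libraries in opposite directions, by 0.41 for SLC38A2 and by -0.80 for SLC38A1 on the log2 scale. Over the 25 tested transporters the median departure of Control 3 was 0.13, against 0.00 over all genes tested, and Control 3 was the highest or the lowest library in 12 of the 25, as Control 2 was.

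The other SLC38 genes were lower. SLC38A10 measured 49.2 ± 3.07 CPM in Control, against 50.3 ± 3.28 CPM under IL-33 (SD, n = 3 each), which made it one of the steadiest transporters, with a log2 fold change of 0.03 ± 0.14. SLC38A7, a lysosomal carrier of glutamine and asparagine, measured 10.8, 13.3 and 17.4 CPM in Control, against 14.9, 17.5 and 13.9 CPM under IL-33 (0.17 ± 0.25). SLC38A9, the lysosomal arginine sensor that signals to the kinase complex mTORC1, measured 6.85, 3.01 and 3.62 CPM in Control, against 7.14, 4.88 and 8.25 CPM under IL-33. Its log2 fold change of 0.57 ± 0.40 was one of the 3 upward differences with the smallest p, and Control 1 fell among the IL-33 values. The log2 fold change was 1.03 without Control 1, with an adjusted edgeR p of 0.999, and 0.34 without Control 2. SLC38A6 had 8.05 ± 2.53 and 7.83 ± 2.39 CPM. It overlaps TRMT5 on the opposite strand, which had 1517 counts against 405, so reads of the pair may not be told apart. SLC38A3, a glutamine carrier of liver and astrocytes, had 2.11 ± 1.16 and 2.56 ± 1.05 CPM. SLC38A4 (45 counts over the 6 libraries) and SLC38A5 (14) were too low to test, and SLC38A8 and SLC38A11 had 0 counts.

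The heavy chain SLC3A2 (chromosome 11, 62856102 to 62888875), the CD98 subunit that carries its SLC7 partners to the cell surface, measured 105, 112 and 97.5 CPM in Control, against 113, 103 and 121 CPM under IL-33. The groups overlapped, and the log2 fold change was 0.10 ± 0.11. The other heavy chain, SLC3A1, which serves cystine uptake in kidney and gut, had 4 counts, all in Control 1, and overlaps PREPL (3572 counts) on the opposite strand.

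Of the light chains, SLC7A5 (LAT1; chromosome 16, 87830023 to 87869488), the exchanger of leucine and other large neutral amino acids, led with 140, 136 and 126 CPM in Control, against 127, 129 and 110 CPM under IL-33. Control 3 was the lowest Control library and lay below 2 of the IL-33 libraries, and the log2 fold change was -0.14 ± 0.11. A near-identical copy, SLC7A5P2, had 157 counts over the 6 libraries against 6684 for SLC7A5, so that reads shared between them may have been split or lost. SLC7A6, which trades cationic for neutral amino acids, measured 21.8, 26.7 and 18.1 CPM in Control, against 31.2, 22.3 and 22.6 CPM under IL-33 (0.19 ± 0.21, from 0.01 without IL-33 1 to 0.34 without Control 2).

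SLC7A11 (xCT; chromosome 4, 138164097 to 138242349), which imports cystine for glutathione in exchange for glutamate and is the route by which activated microglia are known to release glutamate, measured 29, 29.6 and 26.4 CPM in Control. With IL-33 it measured 16.1, 17.7 and 33.8 CPM. The Control libraries lay within a narrow band, while IL-33 1 and 2 lay below all of them and IL-33 3 above all of them. The log2 fold change was -0.34 ± 0.24 with a 95% interval from -0.84 to 0.17. It was -0.75 without IL-33 3 and -0.15 without IL-33 1, with adjusted edgeR p-values of 0.9997 and 0.9999. SLC7A11-AS1, on the opposite strand, had 25 counts against 1303, and the strand setting of the counting is not given in the sources used here.

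The remaining light chains were near or at the detection limit. SLC7A7, the export partner of SLC3A2 in gut and macrophages, had 56 counts over the 6 libraries, SLC7A8 (LAT2), an exchanger of neutral amino acids, had 6, and SLC7A9, the partner of SLC3A1, had 1. SLC7A10, a serine exchanger of astrocytes, and SLC7A13 had 0 counts. Summed over the 6 known partners of SLC3A2 (SLC7A5, SLC7A6, SLC7A7, SLC7A8, SLC7A10 and SLC7A11), light chains came to 192, 193 and 171 CPM in Control, against 176, 170 and 168 CPM under IL-33. The ratio of this sum to SLC3A2 was 1.83, 1.73 and 1.76 in Control, against 1.55, 1.65 and 1.39 under IL-33, so that each IL-33 library lay below each Control library. The ratio was not tested, and neither the sum's leading gene nor SLC3A2 passed the test by itself. Among all single genes tested, 3.51% likewise had every IL-33 value below every Control value, a share that is no background for a ratio. The ratio of SLC1A5 to SLC1A4 was 2.40, 1.83 and 2.06 in Control, against 2.35, 2.53 and 2.53 under IL-33, and overlapped.

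**Figure D3:**
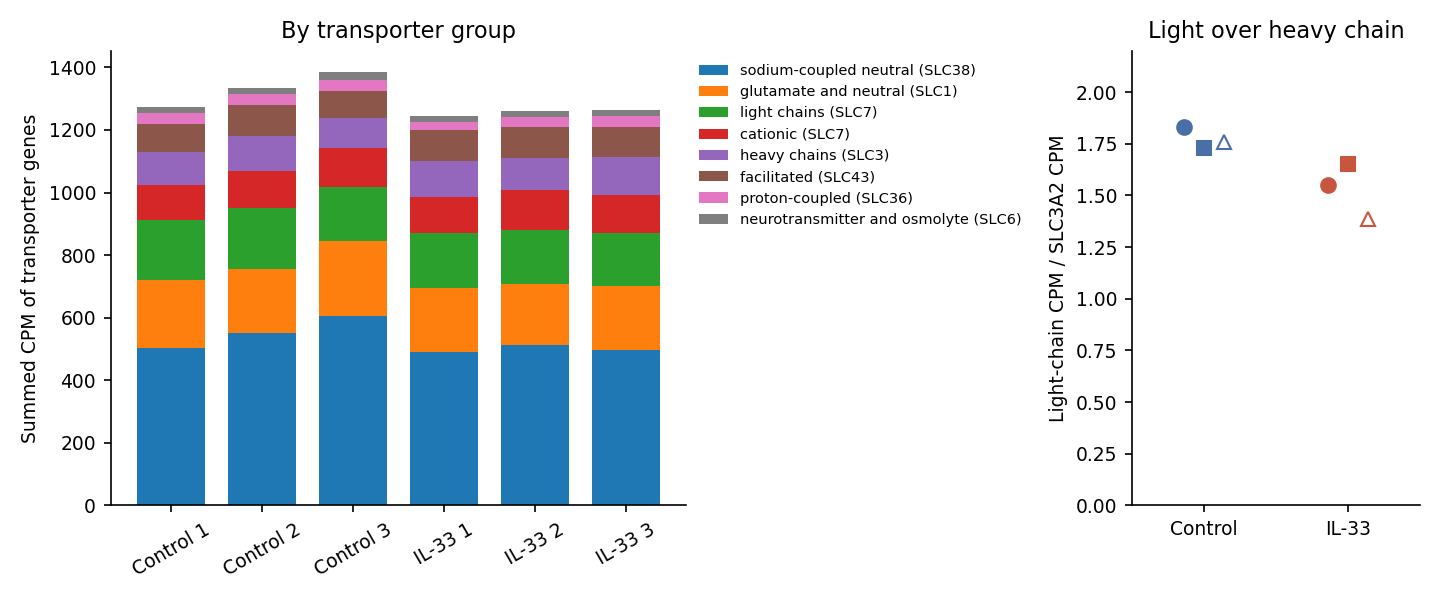
Left, summed CPM of the transporter genes in each library, stacked by group. Right, light-chain CPM over SLC3A2 CPM in each library (circle 1, square 2, open triangle 3), with the 3 Control libraries between 1.73 and 1.83 and the 3 IL-33 libraries between 1.39 and 1.65.

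Cationic amino acid carriers were represented by SLC7A1 (CAT1), the general importer of arginine and lysine. It measured 105, 113 and 122 CPM in Control, against 111, 123 and 116 CPM under IL-33, and of the 25 tested transporters it varied least across the 6 libraries (coefficient of variation 5.79%). SLC7A2 (CAT2), the arginine importer that accompanies nitric oxide synthesis in activated macrophages, measured 6.06, 2.89 and 2.90 CPM in Control, against 4.26, 6.64 and 5.42 CPM under IL-33. Control 1 lay within the IL-33 range, and the log2 fold change was 0.44 ± 0.43 (0.25 to 0.91 with a library left out). SLC7A3 had 37 counts and SLC7A14 35 over the 6 libraries, and SLC7A4 had 0.

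Within the SLC1 family the neutral exchangers were abundant and the glutamate carriers were not. SLC1A5 (ASCT2; chromosome 19, 46774883 to 46788594), the main glutamine exchanger of proliferating cells, measured 152, 131 and 159 CPM in Control, against 142, 138 and 144 CPM under IL-33. All IL-33 values fell inside the Control range, and the log2 fold change was -0.06 ± 0.11.

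SLC1A4 (ASCT1; chromosome 2, 64988477 to 65023865), an exchanger of serine, alanine and threonine, measured 63.6, 71.4 and 77.1 CPM in Control, against 60.3, 54.7 and 57.1 CPM under IL-33. The means were 70.7 ± 6.80 and 57.4 ± 2.83 CPM (SD, n = 3 each), and each IL-33 library lay below each Control library. The log2 fold change was -0.30 ± 0.13, with an unadjusted edgeR p of 0.0353 and an adjusted one of 0.999. It lay between -0.37 and -0.23 with a library left out, the smaller value without Control 3. The unadjusted p by edgeR was then 0.0221 without Control 1 and 0.0487 without IL-33 1. Without Control 2, Control 3, IL-33 2 or IL-33 3 it was 0.0754, 0.0789, 0.104 and 0.0782.

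The high-affinity glutamate carriers were at the lower end. SLC1A1 (EAAT3) measured 1.14 ± 0.695 CPM in Control, against 1.57 ± 0.496 CPM under IL-33, and SLC1A3 (EAAT1) 1.7 ± 0.592 and 1.28 ± 0.698 CPM. SLC1A2 (EAAT2), the main glutamate carrier of astrocytes, had 8 counts in Control 1 and 1 in IL-33 3, SLC1A7 had 20 counts and SLC1A6 had 0. No fold was computed for these 3.

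**Figure D4:**
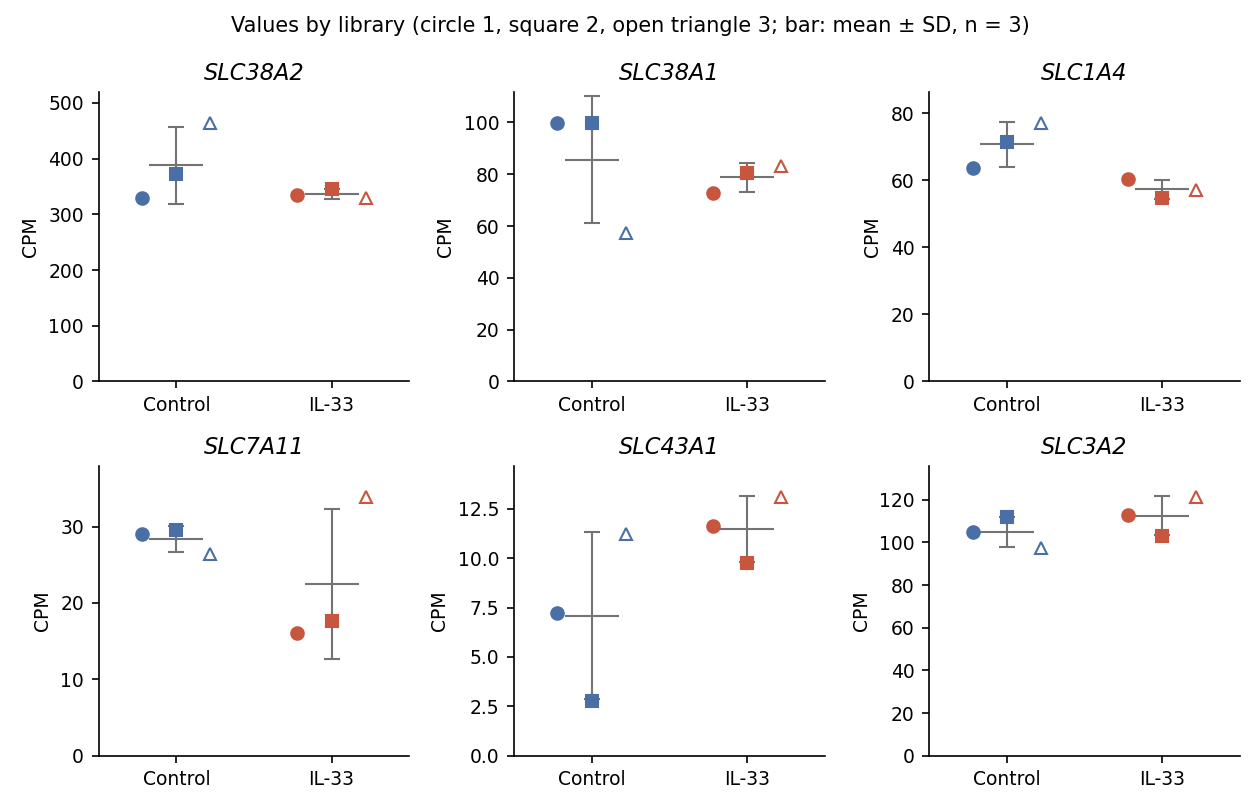
CPM of 6 transporter genes by library, with the mean and SD of each group (n = 3, axes start at 0). Control 3 is the highest Control value for SLC38A2 and the lowest for SLC38A1, the 3 IL-33 values of SLC1A4 lie below all Control values, and IL-33 3 lies at 33.8 CPM for SLC7A11 against 16.1 and 17.7 CPM in the other IL-33 libraries.

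SLC36 carriers, some of which move small amino acids together with protons and some of which are lysosomal exporters, were of middling level where tested. SLC36A4 measured 22.2 ± 2.45 CPM in Control, against 20.2 ± 2.71 CPM under IL-33 (log2 fold change -0.14 ± 0.20). SLC36A1 (PAT1) measured 11.7, 12.3 and 15.2 CPM in Control, against 7.89, 10.1 and 12.9 CPM under IL-33. IL-33 1 and 2 lay below all Control libraries and IL-33 3 within their range, and the log2 fold change was -0.34 ± 0.27 (from -0.53 without IL-33 3 to -0.19 without IL-33 1). SLC36A2 and SLC36A3 had 0 counts.

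Of the SLC43 family, SLC43A3, which is known to carry purine nucleobases and not amino acids, was the most abundant with 73.6 ± 14.2 CPM in Control, against 75.3 ± 4.2 CPM under IL-33. AP000781.2, a protein-coding gene on the same strand, overlaps SLC43A3. SLC43A2 (LAT4), a facilitated carrier of large neutral amino acids, measured 10.7 ± 2.08 and 10.7 ± 1.84 CPM. SLC43A1 (LAT3), a carrier of the same kind, had the largest log2 fold change of the 25, 0.72 ± 0.38. It measured 7.25, 2.76 and 11.2 CPM in Control, against 11.6, 9.77 and 13.1 CPM under IL-33. Control 2 was low and Control 3 lay within the IL-33 range. Leaving out Control 2 brought the log2 fold change to 0.33, and leaving out Control 3 brought it to 1.17 with an adjusted edgeR p of 0.380.

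The SLC6 family held 19 members and 1.54% of the transporter counts. It includes carriers of monoamines, taurine and creatine besides those of amino acids. SLC6A6, the taurine carrier, measured 10.1 ± 1.47 CPM in Control, against 9.42 ± 0.805 CPM under IL-33, SLC6A8, the creatine carrier, 7.32 ± 2.06 and 7.44 ± 1.26 CPM, and SLC6A9 (GLYT1), a glycine carrier, 1.63 ± 1.17 and 1.54 ± 0.686 CPM. SLC6A10P, a copy of SLC6A8, had 0 counts, and SLC6A9 overlaps CCDC24 on the opposite strand, which had 101 counts against 77. The GABA carriers SLC6A11, SLC6A12 and SLC6A13 and those of noradrenaline (SLC6A2), dopamine (SLC6A3) and serotonin (SLC6A4) had between 0 and 10 counts over the 6 libraries. SLC6A5, SLC6A14, SLC6A18 and SLC6A19 had 0 counts, and SLC6A7, SLC6A15, SLC6A16, SLC6A17 and SLC6A20 had 1 to 19.

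The order of the abundant genes was firm in part. SLC38A2 lay above SLC1A5 in 6 of 6 libraries, SLC3A2 above SLC38A1 in 6, and SLC38A10 above SLC7A11 in 6. SLC7A1 lay above SLC3A2 in 4 of 6, SLC7A11 above SLC7A6 in 4 and SLC7A6 above SLC36A4 in 3, so that these neighbours were not set apart. Just above 10 CPM lay SLC38A7, SLC36A1 and SLC43A2, and just below it SLC6A6, SLC43A1 and SLC38A6.

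To place these levels beside known control sequences, the 250 bases before each RefSeq start (GRCh38.p14) were searched on both strands for TGATGNAA, the composite element bound by C/EBP and ATF proteins, and for TGACNNNGC, the antioxidant response element. The table holds 66 starts for 44 of the 59 genes. The others, SLC7A11, SLC7A2, SLC6A6 and SLC43A3 among them, had no start listed and were not searched. The composite element was found at 2 of the 66 starts, against 3.14% of 35116 starts of all genes, and the antioxidant element at 6 of the 66, against 10.9%. The 3 stretches below are shown because they hold the composite matches and the match before the heavy chain gene. Each is 30 bases long on the strand of its gene, with the match in capitals, at chr19:46784893-46784922 (minus strand), chr5:36596357-36596386 (plus strand) and chr11:62881652-62881681 (plus strand).
SLC1A5: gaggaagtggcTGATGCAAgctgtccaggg
SLC1A3: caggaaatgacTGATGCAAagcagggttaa
SLC3A2: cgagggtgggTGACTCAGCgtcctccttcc
The SLC1A5 match lies 97 to 90 bases before 1 of 3 listed starts, that of SLC1A3 220 to 213 bases before 1 of 3 and that of SLC3A2 37 to 29 bases before 1 of 3. The SLC1A5 and SLC3A2 matches fall inside the gene positions given above, so each precedes an internal start and not the outermost one. A match is a description of the letters and not a measured site. SLC1A5 and SLC3A2 were among the 5 most abundant transporters and SLC1A3 was near the detection limit, and none of the 3 passed the test. The single start of SLC38A2 held neither element in this window.

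No gene passed the test on 3 lists of genes that sense, spare or use amino acids. The 34 tested genes of amino acid sensing through mTORC1 included MTOR, RPTOR, MLST8, TFEB and TFE3. Of the 34, 0 were called, 14 had a log2 fold change above 0 and 20 below, and the median was -0.04. WDR24, of the GATOR2 complex that mTORC1 needs to respond to amino acids, measured 13.6 ± 3.29 CPM in Control, against 8.36 ± 1.55 CPM under IL-33 (-0.69 ± 0.28), with each IL-33 library below each Control library. FNIP1 and FLCN, partners that act on the Rag GTPases, had -0.28 ± 0.16 and 0.17 ± 0.19, and the leucine sensor SESN2 had 0.09 ± 0.12. RRAGB, a Rag GTPase gene, also reached an unadjusted p under 0.05 (1.62 ± 0.67 at 2.55 CPM) and was named after its values were seen. By edgeR, 3 of the 34 reached that level, 2 of them higher with IL-33, against 2.43% of all genes tested. FLCN and RRAGB were separated between the groups too, in the upward direction. Such separation was upward in 3 of the 34 and downward in 1, where the shares over all genes were 4.54% and 3.51%.

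Of 27 tested genes of the ATF4 response to amino acid shortage, 0 were called, and by edgeR 0 also reached an unadjusted p under 0.05, with 12 above 0, 15 below and a median of -0.03. ASNS, which makes asparagine and is a standard ATF4 target, measured 122 ± 9.35 CPM in Control, against 136 ± 10.5 CPM under IL-33 (0.15 ± 0.11), and the transcription factor genes CEBPB and CEBPG had 0.26 ± 0.14 and -0.25 ± 0.19. GPT2, an alanine aminotransferase, had -0.15 ± 0.13.

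Of 17 tested enzymes of glutamate, glutathione and arginine metabolism 0 were called, 4 were above 0 and 13 below, with a median of -0.13 against -0.01 over all genes. Over all genes tested 48.9% were above 0. The groups were separated, all IL-33 values below, in 4 of the 17, where the share over all genes was 3.51%. Among them were GLUD1, glutamate dehydrogenase, at 83.0 ± 5.81 and 72.1 ± 3.53 CPM (-0.20 ± 0.12), and GSS, glutathione synthetase, at 177 ± 4.91 and 162 ± 2.49 CPM (-0.13 ± 0.10). GSR, glutathione reductase, and GGT7 had 0.26 ± 0.17 and 0.25 ± 0.18. ARG2, a mitochondrial arginase named after its values were seen, measured 12 ± 0.582 CPM in Control, against 7.20 ± 1.44 CPM under IL-33 (-0.73 ± 0.29), with an adjusted edgeR p of 0.999.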

How the data were processed

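RNA of 6 HMC3 libraries (3 Control, 3 IL-33) was measured with QuantSeq 3' FWD, per the labels' protocols. The authors deposited whole-number read counts per gene symbol. Per the submitters' processing notes, which give no roles, STAR 2.7.5a, HTSeq 0.6.1, edgeR and hg38 were used. The sources used here do not give annotation, strand setting or filters. Of 27470 rows, 1 held no values and was left out. Genes were kept by filterByExpr (count minimum 10, total minimum 15), which left 12125 with 99.9% of the counts. After TMM scaling, the groups were compared with edgeR 4.0.16 (R 4.3.3; quasi-likelihood test, robust, Benjamini-Hochberg at 0.05 over all genes), with group as the sole term. Log-scale levels used a prior count of 2. The procedure was tested on simulated counts.

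Members, lists and the naming rule were chosen with earlier results of these data known. The rule named members at 10 CPM or more, the 3 on either side of that level, the 3 with the smallest p in each direction, members at 0, and from each list the 2 genes at 10 CPM or more with the smallest p in each direction. Alternatives were no scaling, DESeq2's size factors, no filter, a 10 CPM filter, DESeq2 1.42.0, limma-voom (limma 3.58.1), a replicate block and each library left out. Libraries of a group differed by 5.61 to 16.5 in chi-square per degree of freedom, so none were merged. Counting limits cover counting error only, because PCR reads are not independent molecules. Gene positions came from GENCODE release 29 and promoters from RefSeq. Figures used matplotlib 3.10.9. A few genes are not reported here.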

Additional observations from a re-analysis of the deposited data

How the results depend on the processing

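No transporter gene and no gene of the 3 lists was called by edgeR under any scaling, filter, replicate block or library left out, nor by DESeq2 or limma-voom. Over all genes the count of 0 became 3 without the low-count filter, 1 with DESeq2 (KIRREL3-AS2) and ran from 0 to 6 with a library left out, 6 without Control 3. None of these was a transporter. The labels do not say that the replicate numbers pair the libraries, and correlations of same-numbered deviations were -0.086, 0.027 and -0.136. With the replicate block 0 genes were called, and SLC1A4 had -0.30 with an unadjusted p of 0.0587 by edgeR. SLC43A1 (0.86) had an unadjusted p of 0.0267 there, 0.0257 without the low-count filter and 0.0153 with limma-voom, and none held after adjustment. Directions near 0 were not stable: the log2 fold change of SLC43A2 was -0.0012 with DESeq2's size factors and -0.0011 with DESeq2, and with a library left out it ran from -0.15 to 0.14, that of SLC38A10 from -0.0214 to 0.0746, SLC43A3 from -0.0708 to 0.197, SLC7A1 from -0.0074 to 0.0956, SLC6A6 from -0.201 to 0.019 and SLC38A6 from -0.31 to 0.23. Depth limits the low members: genes with 3 counts or fewer in a library cannot be told from 0.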
